A study of Homo sapiens with 12 samples.

Results

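The 36 genes described here carry cells through G2 phase and mitosis. They were chosen by symbol for their known roles, with earlier results of these data known. Each symbol matched 1 row of the count table, which held 27505 features (19974 Ensembl genes and 7531 unannotated loci). For description they were divided into 11 cyclins and kinases, 16 spindle and kinetochore genes, and 9 genes with other mitotic roles. RNA was taken from Y79 and WERI-Rb-1 (written WERI), 2 established human retinoblastoma lines that both carry the genotype label WT. THZ1 is a small molecule that binds covalently to CDK7, the kinase subunit of TFIIH, and with lower potency to CDK12 and CDK13. The groups were Y79 in 50 nM THZ1, Y79 in 0.1% DMSO (the solvent), WERI in 50 nM THZ1 and WERI in 0.1% DMSO, all for 12 h and with 3 cultures each. The series' design text calls these cultures biological samples and says no more of how they were separated, so p-values measure the spread between these cultures, which may be partly technical. Each line stands for 1 tumour only.

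Entry into mitosis is driven by CDK1 bound to cyclin B, which phosphatases of the CDC25 family switch on and which Polo-like and Aurora kinases assist. Kinetochores then tie chromosomes to a spindle shaped by kinesins, checkpoint kinases hold anaphase back until all chromosomes are attached, and the anaphase promoting complex ends mitosis by having cyclin B and securin destroyed. The genes for these proteins are transcribed late in the cell cycle from promoters bound by the MuvB complex, MYBL2, FOXM1 and NF-Y, with MuvB reading the cell cycle homology region (CHR) and NF-Y reading CCAAT boxes. CDK7 acts on this path in a pair of ways, since it activates CDK1 directly and phosphorylates RNA polymerase II.

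The 12 libraries held from 29677575 to 37433574 counts. CDK7 mRNA, the transcript of the drug's main target, was lower after THZ1 by 1.83 ± 0.12 on the log2 scale in Y79 and by 1.89 ± 0.13 in WERI (SE). All 10 photoreceptor lineage markers, which fit the labelled tumour type, had counts in every library, and their summed level lay between 685 and 723 CPM in treated Y79, 1734.5 and 1746 CPM in Y79 DMSO, 1741 and 1761 CPM in treated WERI, and 3468.5 and 3559 CPM in WERI DMSO cultures. Markers of stroma, blood, glia and epithelium, 14 in all, summed to at most 56.0 CPM in any library, and TYR and KRT5 were at 0 throughout. Of the 10 photoreceptor markers 7 fell and 2 rose in Y79 (38.5% of all genes tested fell and 29.9% rose) and 5 fell and 4 rose in WERI (37.2% fell and 27.7% rose); THRB (-2.36 in Y79, -2.04 in WERI), OTX2 (-1.94 in Y79, -1.53 in WERI) and PRDM1 (-1.14 in Y79, -0.68 in WERI) fell. RCVRN (1.24 in Y79, 1.04 in WERI) and PDE6H (1.36 in Y79, 1.14 in WERI) rose, and NEUROD1 changed by -0.33 in Y79 and 0.55 in WERI. Of the 9 other markers with enough counts to test, none fell, and 3 rose in Y79 and 2 in WERI, COL1A1 by 1.10 in Y79 and 1.08 in WERI; RCVRN, PDE6H, COL1A1 and (in WERI) NEUROD1 were negative with mitochondrial scaling. The marker sums above were scaled to the library total only, without TMM factors. All other levels are CPM, counts scaled for library depth with TMM factors, a scaling that takes the typical gene as its fixed point. These factors were 0.70 to 0.80 in treated Y79 and 1.12 to 1.13 in Y79 DMSO cultures. They were 0.91 to 0.94 in treated WERI and 1.25 to 1.27 in WERI DMSO cultures. The photoreceptor sums thus fell further after THZ1 than they would with TMM scaling. The 13 mRNAs encoded by the mitochondrial genome took 8.44% to 9.73% of counts in treated Y79 and 3.94% to 4.46% in Y79 DMSO cultures, and 9.79% to 11.2% in treated WERI and 3.74% to 3.94% in WERI DMSO cultures. The ribosomal protein mRNAs took 10.6% to 14.7% of counts in treated Y79 against 4.59% to 4.68% in Y79 DMSO, and 6.22% to 6.64% in treated WERI against 2.80% to 3.16% in WERI DMSO cultures. The part of these classes in the results on mitosis genes was not tested.

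THZ1 was followed by lower mRNA levels of most G2/M and mitosis genes in both lines. Together the 36 genes took 0.288%, 0.235% and 0.284% of counts in treated Y79 cultures, against 0.602%, 0.630% and 0.586% in Y79 DMSO cultures. In treated WERI cultures they took 0.526%, 0.581% and 0.544% of counts, against 0.976%, 0.933% and 0.943% in WERI DMSO cultures. Treated and DMSO cultures did not overlap in either line. In bulk RNA, fewer cells in G2 and mitosis and less of each mRNA per cell cannot be told apart.

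By edgeR's quasi-likelihood test with Benjamini-Hochberg adjustment over all features, 31 of the 36 genes fell in Y79 and 2 rose, KIF4A and PRC1. Among all 14865 Ensembl genes tested, 68.3% were called in Y79, 38.5% lower and 29.9% higher. In WERI 28 of the 36 fell and 4 rose, against 64.8% of all genes tested called in WERI, 37.2% lower and 27.7% higher. The 4 that rose in WERI were PRC1, KIF4A, NUSAP1 and FOXM1. The median log2 fold change of the 36 was -0.81 in Y79 and -0.84 in WERI, beside -0.09 and -0.11 over all genes tested in Y79 and in WERI. Falls of at least 2-fold were found for 14 of the 36 genes in Y79 (19.9% of all genes) and 13 in WERI (16.7%). The same 28 genes fell in both lines, where 30.9% of all genes did, and KIF4A and PRC1 rose in both, where 21.8% did. All 36 passed the filter on low counts, and the lowest of them averaged 3.96 log2 CPM. Among the 8408 genes at or above that level, 80.9% were called in Y79 (45.1% lower and 35.8% higher) and 77.9% in WERI (42.9% lower and 35% higher). Scaled to the mitochondrially encoded mRNAs instead, all 36 genes were lower in both lines, KIF4A and PRC1 included, but so was the typical gene, whose median shifted to -1.80 in Y79 and -2.01 in WERI.

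In Y79 the fall was deepest among cyclins and kinases. In WERI, with BUB1, BUB1B and TTK counted as kinases, cyclins and kinases and spindle genes fell about as far. All 11 cyclins and kinases fell in both lines, with a median log2 fold change of -1.75 in Y79 and -0.91 in WERI. With BUB1, BUB1B and TTK moved to the spindle genes, the median of the remaining cyclins and kinases was -1.81 in Y79 and -1.12 in WERI. Of the 16 spindle and kinetochore genes, 14 fell and 2 rose in Y79 (median -0.82), and 13 fell and 3 rose in WERI (median -0.94). Of the 9 remaining genes 6 fell and none rose in Y79 (median -0.46), while 4 fell and 1 rose in WERI (median -0.16). The order of these groups was the same in every treated Y79 culture and varied in WERI. In the 3 treated Y79 cultures the median log2 ratio to the DMSO mean was -1.67, -1.70 and -1.70 for cyclins and kinases and -0.94, -0.83 and -0.81 for spindle and kinetochore genes. In the 3 treated WERI cultures it was -0.98, -0.81 and -0.93 for cyclins and kinases and -1.06, -0.79 and -0.97 for spindle and kinetochore genes. Across the 36 genes the changes in the 2 lines were alike in rank, with a Pearson r of 0.90 and a Spearman rho of 0.87, which describes genes measured in the same libraries and not replicates. Gene length, exon length and the level in DMSO were weakly related to the change, with every Pearson r across the 36 genes between 0.04 and 0.28.

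**Figure D1:**
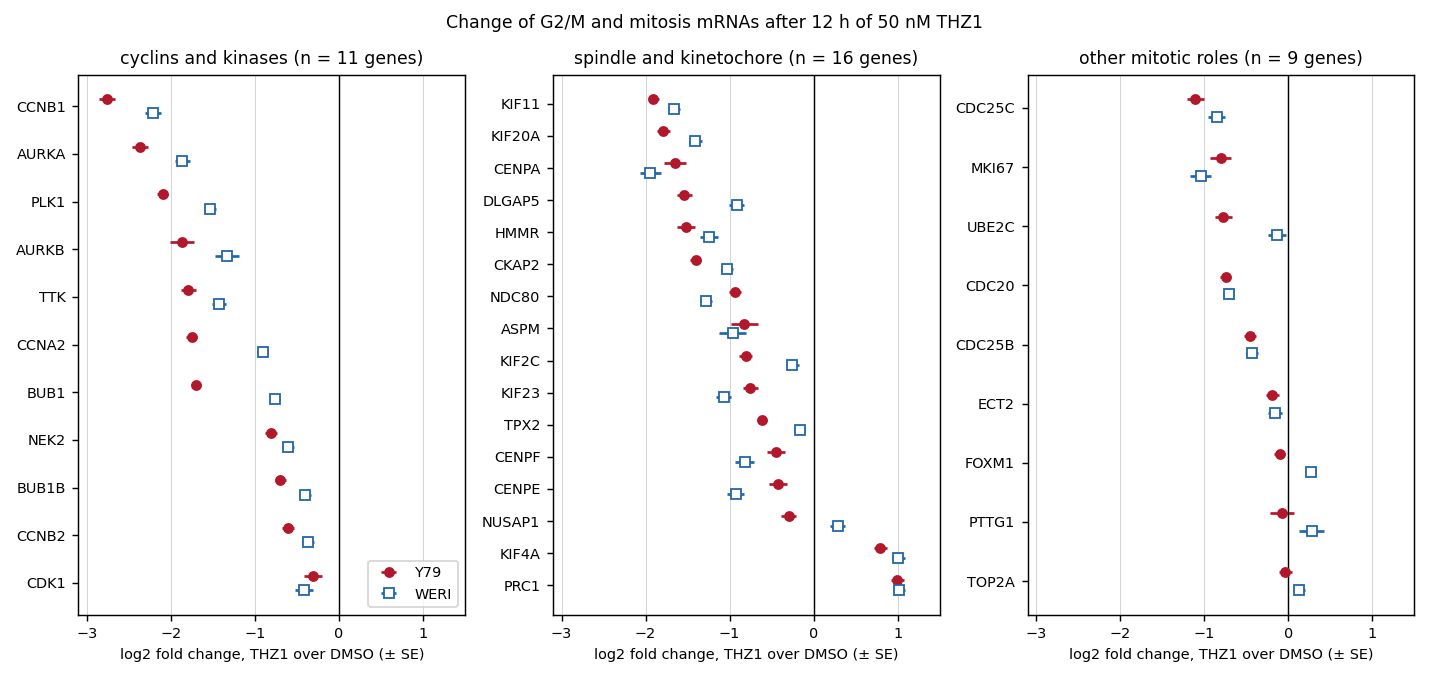
Log2 fold change of each G2/M and mitosis mRNA, THZ1 over DMSO (x axis), with its SE, in Y79 (filled circles) and WERI (open squares), for 11 cyclins and kinases, 16 spindle and kinetochore genes and 9 genes with other roles. CCNB1 is lowest at -2.76 in Y79 and -2.21 in WERI; KIF4A and PRC1 lie right of 0 in both lines under TMM scaling, though they are negative when scaled to mitochondrially encoded mRNAs.

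Promoter letters are shown for 6 members whose mRNAs behaved differently, to set a shared control region beside unlike changes. The windows hold the last 130 bases before the annotated RefSeq start on GRCh38.p14, on the strand of the gene, and capitals mark each CHR motif (TTTGAA or TTTAAA, searched on both strands, so also TTCAAA) and each CCAAT box (or ATTGG on the other strand). CCNB1 (chr5:69167020-69167149, plus strand) fell deepest, CCNB2 (chr15:59105016-59105145, plus strand) fell little, and PLK1 (chr16:23678759-23678888, plus strand) stands for the kinases that fell deeply. KIF4A (chrX:70289974-70290103, plus strand) and PRC1 (chr15:90994536-90994665, minus strand) rose with TMM scaling and not with mitochondrial scaling. CKAP2 (chr13:52455858-52455987, plus strand) fell and holds neither motif in its window, which lies inside the GENCODE v29 gene (start at 52455429).
CCNB1: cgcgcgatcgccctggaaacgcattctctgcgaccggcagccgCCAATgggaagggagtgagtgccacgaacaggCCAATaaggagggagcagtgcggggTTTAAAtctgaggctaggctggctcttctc
CCNB2: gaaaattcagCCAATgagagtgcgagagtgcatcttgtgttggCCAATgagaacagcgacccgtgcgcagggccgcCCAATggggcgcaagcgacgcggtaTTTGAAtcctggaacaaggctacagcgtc
PLK1: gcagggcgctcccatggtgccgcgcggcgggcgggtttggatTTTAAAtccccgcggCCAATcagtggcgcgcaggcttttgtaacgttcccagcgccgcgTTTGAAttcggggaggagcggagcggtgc
KIF4A: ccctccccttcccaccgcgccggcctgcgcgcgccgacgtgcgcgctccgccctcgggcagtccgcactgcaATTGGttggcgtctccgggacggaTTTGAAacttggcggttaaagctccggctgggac
PRC1: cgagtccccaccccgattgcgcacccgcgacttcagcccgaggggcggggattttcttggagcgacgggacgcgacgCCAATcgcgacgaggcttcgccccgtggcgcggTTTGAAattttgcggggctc
CKAP2: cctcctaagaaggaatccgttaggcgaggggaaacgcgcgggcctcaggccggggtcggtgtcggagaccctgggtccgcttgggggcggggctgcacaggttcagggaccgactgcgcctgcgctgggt
CCNB1, CCNB2, PLK1, KIF4A and PRC1 all hold a CHR motif downstream of a CCAAT box in these windows. RefSeq promoter entries of 300 bases (250 before the start and 50 after it) matched 31 of the 36 members, all but AURKA, TTK, TPX2, UBE2C and FOXM1. A CHR motif stood in 24 of the 31 (77.4%) and in 24.3% of all 27305 promoters, a CCAAT box in 24 of the 31 (77.4%) and in 35.7%, and both in 20 of the 31 (64.5%) and in 9.49%. By role, a CHR motif stood in 5 of 9 promoters of cyclins and kinases and in 14 of 15 of spindle and kinetochore genes. CDC25B and CDC25C, like CKAP2, had neither motif in the window searched. Only 1 annotated start per gene was searched, so a motif near another start of the same gene would be missed. Other forms of the CHR than TTTGAA and TTTAAA would be missed as well. The median log2 fold change was -0.75 in Y79 and -0.87 in WERI for the 24 with a match to these letters. For the 7 without a match it was -1.41 in Y79 and -0.85 in WERI. These 7 include CCNA2, AURKB, NEK2 and BUB1, all cyclins or kinases, and cannot be taken to lack a CHR. These matches describe letters in a window and show no binding.

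Among the cyclins, CCNB1, the cyclin B that activates CDK1 for mitotic entry, showed the deepest fall of all 36 genes. It stood at 18.8, 21.3 and 15.2 CPM in treated Y79 cultures, against 124, 129 and 122 CPM in Y79 DMSO cultures. Treated WERI cultures held 27.0, 27.1 and 26.5 CPM of CCNB1, against 128, 125 and 120 CPM in WERI DMSO cultures. No treated culture came near a DMSO culture, and the falls were 6.79-fold in Y79 (log2 fold change -2.76 ± 0.10, adjusted p = 6.58e-11) and 4.62-fold in WERI (-2.21 ± 0.10, adjusted p = 5.74e-10). The gene lies at chr5:69167010-69178245 in GENCODE v29 on GRCh38. CCNB2, the second cyclin B, fell much less, to a mean of 83.5 ± 8.05 CPM in treated Y79 against 127 ± 3.30 CPM in Y79 DMSO cultures, and to 41.2 ± 1.38 CPM in treated WERI against 53.4 ± 1.28 CPM in WERI DMSO cultures (SD, n = 3 each). Its log2 fold changes were -0.61 ± 0.07 in Y79 and -0.37 ± 0.07 in WERI.

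CCNA2, the cyclin A that serves S phase and G2, fell further in Y79 than in WERI. Treated Y79 cultures had 33.7, 34.2 and 33.3 CPM, against 114, 116 and 111 CPM in Y79 DMSO cultures. In WERI the values were 98.9, 111 and 102 CPM with THZ1 and 197, 199 and 191 CPM with DMSO. The cultures were far apart in Y79, where the fall was 3.37-fold (-1.75 ± 0.06, adjusted p = 6.82e-11), and also apart in WERI, where it was 1.88-fold (-0.91 ± 0.06, adjusted p = 1.99e-08).

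CDK1, the kinase that these cyclins activate, changed less than CCNB1 and CCNA2 in both lines. CDK1 also fell less than CCNB2 in Y79 (CCNB2 -0.61), and about as far as CCNB2 in WERI (CCNB2 -0.37). Its level was 72.9, 95.9 and 69.8 CPM in treated Y79 cultures and 96.0, 108 and 91.4 CPM in Y79 DMSO cultures. Treated Y79 culture 2 exceeded the lowest DMSO culture, while treated cultures 1 and 3 lay below all DMSO cultures. In WERI, 109, 125 and 129 CPM with THZ1 stood below 162, 163 and 161 CPM with DMSO without overlap. The fall was called in Y79 at -0.31 ± 0.11 (adjusted p = 0.0237) and in WERI at -0.42 ± 0.11 (adjusted p = 0.00415). In Y79 the call was lost with RLE factors (-0.20, adjusted p = 0.136), with DESeq2 (-0.20, adjusted p = 0.141) and without treated culture 1 or 3 or DMSO culture 2 (adjusted p = 0.0859, 0.1 and 0.1). Without treated culture 2 the fall was larger, at -0.50 (adjusted p = 1.79e-05).

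The mitotic kinases AURKA, PLK1, AURKB and TTK all fell more than 2-fold in both lines. AURKA, which matures spindle poles and activates PLK1, stood at 13.2, 10.8 and 10.8 CPM in treated Y79 and 61.2, 62.0 and 57.4 CPM in Y79 DMSO cultures. In WERI it stood at 18.6, 21.0 and 18.5 CPM with THZ1 and 74.5, 69.6 and 67.4 CPM with DMSO. No culture overlapped, and the falls were 5.18-fold in Y79 (-2.37 ± 0.10, adjusted p = 1.69e-10) and 3.64-fold in WERI (-1.86 ± 0.09, adjusted p = 1.66e-09).

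PLK1, the Polo-like kinase that drives CDC25 and later cytokinesis, was close behind. Treated Y79 cultures had 34.3, 38.6 and 37.4 CPM, against 155, 155 and 161 CPM in Y79 DMSO cultures. Treated WERI cultures had 62.2, 61.1 and 58.0 CPM, against 177, 175 and 173 CPM in WERI DMSO cultures. The ranges were again separate, with falls of 4.28-fold in Y79 (-2.10 ± 0.06, adjusted p = 2.29e-11) and 2.89-fold in WERI (-1.53 ± 0.06, adjusted p = 3.99e-10). AURKB, the kinase of the chromosomal passenger complex, fell by 1.87 ± 0.15 on the log2 scale in Y79 and by 1.34 ± 0.14 in WERI. NEK2, which splits centrosomes, fell less, by 0.81 ± 0.07 in Y79 and 0.61 ± 0.07 in WERI.

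The kinases of the spindle checkpoint were not lowered evenly. BUB1, which marks the inner centromere and recruits checkpoint proteins, had 26.3, 24.7 and 25.1 CPM in treated Y79 and 81.6, 85.5 and 80.0 CPM in Y79 DMSO cultures. In WERI it had 56.3, 58.6 and 58.3 CPM with THZ1 and 98.8, 95.01 and 99.0 CPM with DMSO. The fall of 3.25-fold in Y79 (-1.70 ± 0.06, adjusted p = 8.19e-11) was deeper than the 1.69-fold fall in WERI (-0.76 ± 0.06, adjusted p = 1.01e-07), and the cultures were apart in both. TTK, the kinase that starts checkpoint signalling at kinetochores, fell by 1.79 ± 0.09 in Y79 and 1.43 ± 0.08 in WERI. BUB1B, whose product BUBR1 inhibits CDC20, fell by 0.70 ± 0.07 in Y79 and 0.40 ± 0.07 in WERI.

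**Figure D2:**
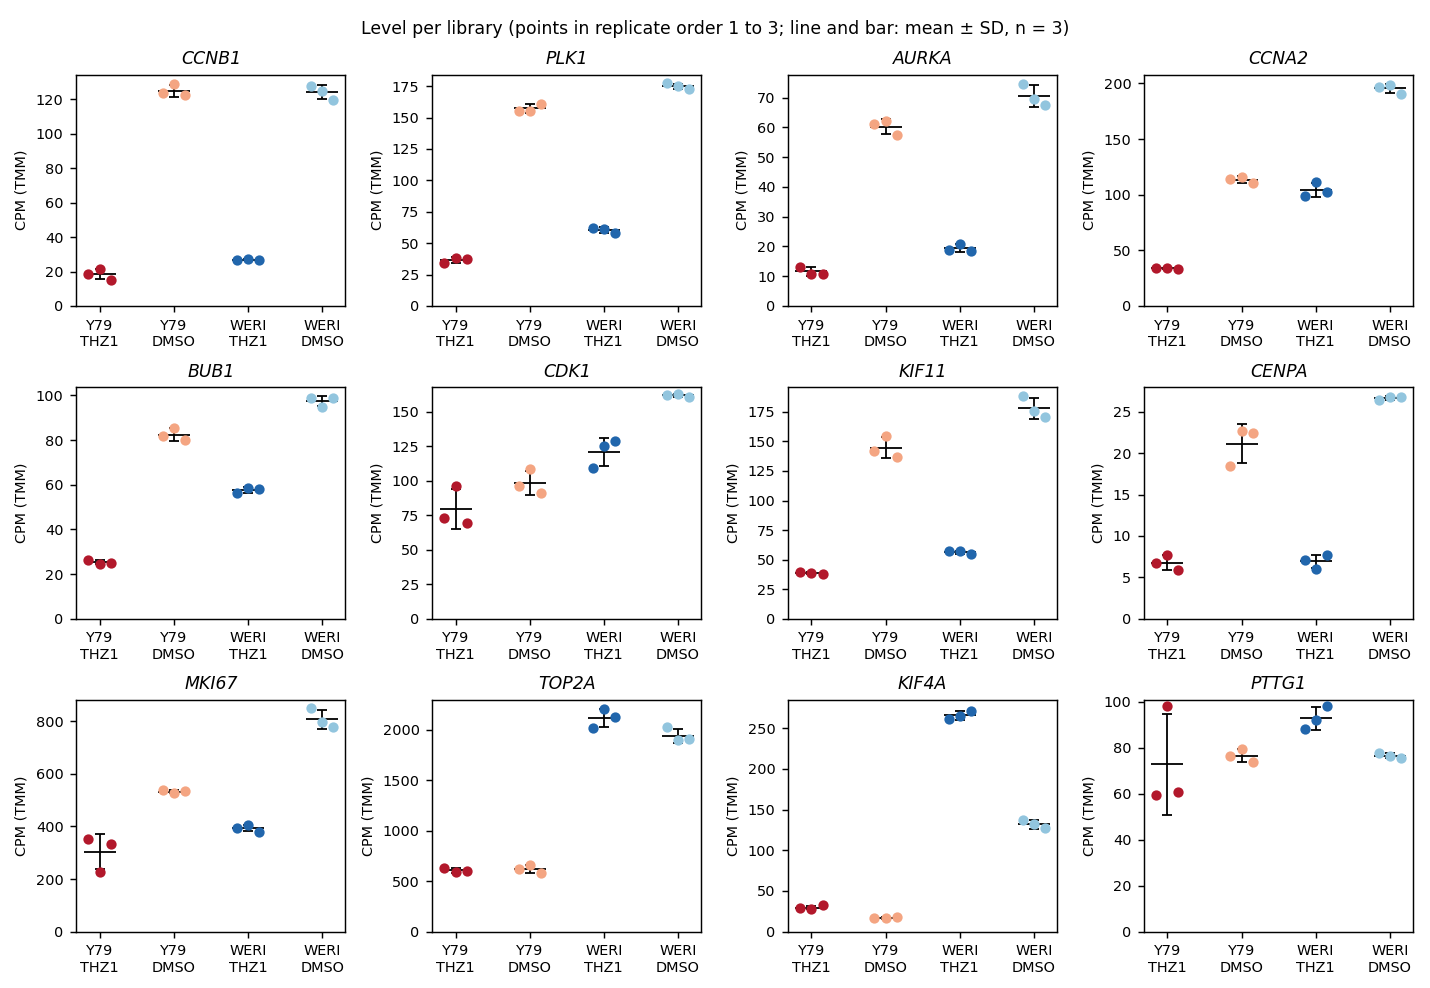
Level of 12 members in each of the 12 libraries (y axis, CPM with TMM scaling, starting at 0), with the mean and SD of 3 cultures per group. CCNB1, PLK1, AURKA, CCNA2, BUB1 and KIF11 separate treated from DMSO cultures in each line; CDK1 overlaps in Y79, TOP2A in WERI has means of 2116 CPM with THZ1 and 1939.5 CPM with DMSO, and PTTG1 in Y79 has 1 high treated culture at 98.4 CPM.

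Among spindle genes KIF11, the kinesin that pushes spindle poles apart, fell deepest in Y79 and deepest after CENPA in WERI. It had 39.3, 38.9 and 37.6 CPM in treated Y79 and 142, 155 and 137 CPM in Y79 DMSO cultures. In WERI it had 57.1, 57.2 and 54.9 CPM with THZ1 and 188, 175 and 171 CPM with DMSO. Treated cultures lay well below DMSO cultures, and the falls were 3.75-fold in Y79 (-1.91 ± 0.07, adjusted p = 6.58e-11) and 3.16-fold in WERI (-1.66 ± 0.07, adjusted p = 3.72e-10). KIF20A, which delivers the passenger complex to the central spindle, fell by 1.79 ± 0.08 in Y79 and 1.41 ± 0.08 in WERI. KIF23, a subunit of centralspindlin needed for cytokinesis, fell by 0.75 ± 0.09 in Y79 and 1.07 ± 0.09 in WERI. KIF2C, a microtubule depolymerase at centromeres, fell by 0.81 ± 0.08 in Y79 and 0.25 ± 0.08 in WERI, where the call was lost with RLE factors (adjusted p = 0.0977) and with DESeq2 (adjusted p = 0.0809).

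Centromere and kinetochore genes fell in both lines. CENPA, the histone H3 variant that marks centromeres, had 6.78, 7.65 and 5.86 CPM in treated Y79 and 18.4, 22.7 and 22.4 CPM in Y79 DMSO cultures. In WERI it had 7.10, 6.03 and 7.66 CPM with THZ1 and 26.4, 26.8 and 26.8 CPM with DMSO. CENPA was one of the least abundant members, its treated and DMSO cultures were separate, and it fell 3.13-fold in Y79 (-1.65 ± 0.13, adjusted p = 7.13e-08) and 3.84-fold in WERI (-1.94 ± 0.13, adjusted p = 1.93e-08). NDC80, the microtubule-binding arm of the outer kinetochore, fell by 0.94 ± 0.07 in Y79 and 1.28 ± 0.07 in WERI. CENPE, a kinetochore kinesin, fell by 0.43 ± 0.10 in Y79 and 0.93 ± 0.10 in WERI, and CENPF, a large kinetochore protein, fell by 0.45 ± 0.11 in Y79 and 0.82 ± 0.11 in WERI.

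Of the microtubule-associated proteins, DLGAP5 and HMMR, which stabilise spindle microtubules, fell by 1.54 ± 0.09 and 1.52 ± 0.11 in Y79 and by 0.92 ± 0.09 and 1.24 ± 0.11 in WERI. CKAP2, another spindle microtubule protein, fell by 1.41 ± 0.07 in Y79 and 1.03 ± 0.07 in WERI. ASPM, which focuses spindle poles, fell by 0.83 ± 0.16 in Y79 and 0.96 ± 0.16 in WERI. TPX2, the activator of AURKA on the spindle, fell by 0.61 ± 0.06 in Y79, where AURKA fell by 2.37. In WERI TPX2 fell by 0.17 ± 0.06 (adjusted p = 0.031), and this call was lost with RLE factors (adjusted p = 0.284), with DESeq2 (adjusted p = 0.191) and without treated culture 1 or 2 or DMSO culture 1 or 2.

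KIF4A and PRC1, partners that bundle the central spindle in anaphase, went against the other members. KIF4A, the chromosome-bound kinesin, had 29.1, 27.7 and 32.3 CPM in treated Y79 and 16.3, 16.5 and 18.5 CPM in Y79 DMSO cultures. In WERI it had 261, 265 and 272 CPM with THZ1 and 137, 132 and 127 CPM with DMSO. The groups were apart in both lines, with rises of 1.73-fold in Y79 (0.79 ± 0.08, adjusted p = 5.07e-07) and 2.01-fold in WERI (1.01 ± 0.07, adjusted p = 3.51e-08) that turned to -0.91 in Y79 and -0.89 in WERI with mitochondrial scaling. KIF4B, a near-identical copy whose reads could be mistaken for KIF4A, held 2 to 51 counts per library, while KIF4A held 571 to 7871. Reads of KIF4B assigned to KIF4A would also leave KIF4B low, so these counts cannot show whether reads were mistaken.

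PRC1, the microtubule bundler, had 244, 255 and 239 CPM in treated Y79 and 122, 129 and 119 CPM in Y79 DMSO cultures. In WERI it had 278, 288 and 299 CPM with THZ1 and 143, 128 and 156 CPM with DMSO. As counted, PRC1 rose 1.99-fold in Y79 (1.00 ± 0.08, adjusted p = 4.84e-08) and 2.02-fold in WERI (1.02 ± 0.08, adjusted p = 5.37e-08), and with mitochondrial scaling the changes were -0.72 in Y79 and -0.89 in WERI. The size of this rise depends on the gene models. PRC1 (chr15:90966038-90995629, minus strand) shares 57.6% of its exon bases with AC068831.7, a second protein coding model on the same strand, and the way in which the authors divided shared reads is not stated in the labels.

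AC068831.7 moved the other way. Its level was 42.1, 55.5 and 49.1 CPM in treated Y79 and 87.1, 84.1 and 91.6 CPM in Y79 DMSO cultures, and 49.6, 46.7 and 39.7 CPM in treated WERI and 116, 128 and 90.3 CPM in WERI DMSO cultures. It fell by 0.84 ± 0.13 on the log2 scale in Y79 and by 1.30 ± 0.13 in WERI, and its share of the summed counts was 14.7% to 17.9% in treated Y79 against 39.5% to 43.6% in Y79 DMSO, and 11.7% to 15.1% in treated WERI against 36.7% to 49.9% in WERI DMSO cultures. With both models summed, the rise was still called but smaller, at 0.48 in Y79 (adjusted p = 6.55e-06) and 0.39 in WERI (adjusted p = 5.28e-05).

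**Figure D3:**
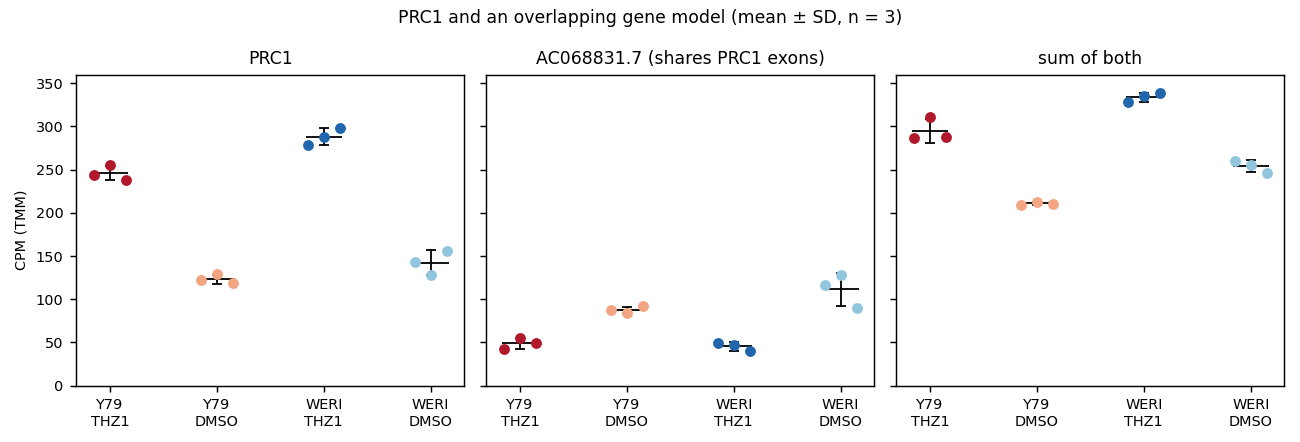
CPM of PRC1, of AC068831.7, which shares its exons, and of their sum in each library (y axis starting at 0; points are libraries, bars mean and SD of 3). PRC1 means are 246 CPM in treated Y79 and 123 CPM in Y79 DMSO cultures, while the sum stands at 295 CPM in treated Y79 and 211 CPM in Y79 DMSO cultures.

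NUSAP1, which links microtubules to chromatin, was the only member called in opposite directions in the 2 lines. It had 143, 154 and 147 CPM in treated Y79 and 180.0, 208 and 159 CPM in Y79 DMSO cultures, and 229, 263 and 240 CPM in treated WERI and 206, 198 and 196 CPM in WERI DMSO cultures. The groups did not overlap in either line but lay close together. It fell by 0.30 ± 0.09 in Y79 (adjusted p = 0.0096) and rose by 0.29 ± 0.09 in WERI (adjusted p = 0.013), where the change was -0.16 with library size only and -1.61 with mitochondrial scaling. The Y79 call was lost with RLE factors (adjusted p = 0.0775) and DESeq2 (adjusted p = 0.0679), and the WERI call without treated culture 2 (adjusted p = 0.111) or DMSO culture 3 (adjusted p = 0.0509). NUSAP1 shares 62.2% of its exon bases with the same-strand model AC087721.2, and summed with it the changes were -0.26 in Y79 (adjusted p = 0.00315) and 0.36 in WERI (adjusted p = 0.000222).

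The phosphatases that switch on CDK1 fell in both lines. CDC25C fell by 1.11 ± 0.10 in Y79 and 0.85 ± 0.10 in WERI, and CDC25B by 0.46 ± 0.07 in Y79 and 0.43 ± 0.07 in WERI. CDC20, the activator of the anaphase promoting complex, fell by 0.75 ± 0.07 in Y79 and 0.71 ± 0.07 in WERI. UBE2C, the ubiquitin-conjugating enzyme of that complex, had 48.6, 63.3 and 46.5 CPM in treated Y79 and 86.9, 89.3 and 94.0 CPM in Y79 DMSO cultures. It fell 1.71-fold in Y79 (-0.77 ± 0.11, adjusted p = 1.91e-05). In WERI, where 115, 105 and 125 CPM with THZ1 overlapped 119, 133 and 125 CPM with DMSO, UBE2C was not called (-0.13 ± 0.10, adjusted p = 0.291), but it was without treated Y79 culture 2 in the fit (-0.16, adjusted p = 0.0312). UBE2C was also called lower in WERI with library size only (-0.58) and mitochondrial scaling (-2.04).

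PTTG1, securin, which holds separase until anaphase, was not called in either line with TMM scaling and all 12 libraries in the fit. In Y79 it was called lower with library size only (-0.66, adjusted p = 0.000164) and mitochondrial scaling (-1.79). In WERI it was called higher with DESeq2 (0.36, adjusted p = 0.0439) and lower with mitochondrial scaling (-1.62). It stood at 59.4, 98.4 and 61.0 CPM in treated Y79 and 76.7, 79.3 and 73.9 CPM in Y79 DMSO cultures. Treated cultures 1 and 3 lay below all DMSO cultures and culture 2 above them, and the fitted change was -0.07 ± 0.15 (adjusted p = 0.691). Without treated culture 2 it was -0.38 (adjusted p = 1.9e-05). In WERI PTTG1 had 88.3, 92.1 and 98.1 CPM with THZ1 and 77.7, 76.7 and 75.5 CPM with DMSO (0.28 ± 0.15, adjusted p = 0.117). The WERI groups did not overlap, and the change was called with only the WERI libraries in the fit (0.28, adjusted p = 0.000157). The near-identical copy PTTG2 held 0 to 16 counts, which cannot show whether its reads were assigned to PTTG1.

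FOXM1, a transcription factor of G2/M genes, changed little with TMM scaling. Its level was 100.3, 103 and 97.7 CPM in treated Y79 and 108, 109 and 107 CPM in Y79 DMSO cultures, and 177, 161 and 162 CPM in treated WERI and 142, 137 and 135 CPM in WERI DMSO cultures. In Y79 the treated cultures lay just below the DMSO cultures without a call (-0.10 ± 0.06, adjusted p = 0.145), which came without treated culture 2 (-0.15, adjusted p = 0.0196). FOXM1 was also called lower in Y79 with library size only (-0.67) and mitochondrial scaling (-1.82). In WERI FOXM1 rose 1.21-fold (0.28 ± 0.06, adjusted p = 0.00113), with changes of -0.17 with library size only and -1.62 with mitochondrial scaling. FOXM1 shares 15.9% of its exon bases with ITFG2 on the opposite strand, and in unstranded libraries such reads cannot be assigned.

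TOP2A, the topoisomerase that untangles chromosomes before anaphase, was the most abundant member per kilobase in every group. It had 631, 591 and 598 CPM in treated Y79 and 625, 661 and 579 CPM in Y79 DMSO cultures, and 2019, 2206 and 2123 CPM in treated WERI and 2022, 1893 and 1904 CPM in WERI DMSO cultures. Treated and DMSO cultures overlapped in Y79, and in WERI treated culture 1 fell within the range of the DMSO cultures. The changes were -0.03 in Y79 (95% interval -0.20 to 0.13) and 0.13 in WERI (-0.04 to 0.29). In Y79, TOP2A was called lower with library size only (-0.60) and mitochondrial scaling (-1.75). In WERI, TOP2A was called higher with RLE factors (0.21, adjusted p = 0.0304) and DESeq2 (0.21, adjusted p = 0.002), and negative with library size only (-0.32) and mitochondrial scaling (-1.77). MKI67, the proliferation marker that coats mitotic chromosomes, fell by 0.81 ± 0.12 in Y79 and 1.04 ± 0.12 in WERI. ECT2, which activates RhoA for cytokinesis, fell by 0.19 ± 0.08 in Y79 (adjusted p = 0.0475) and was not called in WERI (-0.16 ± 0.08, adjusted p = 0.0969), though it was without treated Y79 culture 1 (-0.19, adjusted p = 0.0345) or 2 (-0.19, adjusted p = 0.00697). ECT2 was also called lower in WERI with library size only (-0.61) and mitochondrial scaling (-2.055). The ECT2 call in Y79 was lost with RLE factors (adjusted p = 0.334), with DESeq2 (adjusted p = 0.338) and without any 1 of 6 libraries (adjusted p = 0.0545 to 0.145).

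The next comparison asked whether THZ1 changed the genes differently in the 2 lines, by a test of the difference between the changes (Y79 minus WERI). Of the 36, 16 differed: 14 were more negative in Y79 and 2, CENPE and NDC80, less negative. Over all genes tested 22% differed, 13.2% toward Y79 being more negative and 8.74% the other way, and among the 8408 genes at member level 30.2% did (18.8% and 11.4%). The median difference was -0.27 for the members and -0.01 for all genes. Whether called or not, the log2 fold change was more negative in Y79 than in WERI for 10 of 11 cyclins and kinases, 10 of 16 spindle and kinetochore genes and 8 of 9 others, a count that includes KIF4A and PRC1, which were positive in both lines, and NUSAP1, FOXM1, PTTG1 and TOP2A, which were positive in WERI.

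BUB1 (-0.94, 95% interval -1.13 to -0.76, adjusted p = 2.29e-05) and CCNA2 (-0.84, interval -1.03 to -0.66, adjusted p = 4.43e-05) differed most. PLK1, CCNB1, AURKA and TTK also differed, with -0.57, -0.56, -0.51 and -0.37, which makes 6 of the 11 cyclins and kinases. For CDK1 the difference was 0.11 (interval -0.22 to 0.44, adjusted p = 0.7), for CCNB2 -0.24 (interval -0.45 to -0.02, adjusted p = 0.129) and for AURKB -0.53 (interval -0.96 to -0.11, adjusted p = 0.0808). Among spindle genes DLGAP5 (-0.62), NUSAP1 (-0.58), KIF2C (-0.56), TPX2 (-0.45), KIF20A (-0.38) and CKAP2 (-0.38) were more negative in Y79, and of the others UBE2C (-0.64) and FOXM1 (-0.38). CENPE differed by 0.50 (interval 0.19 to 0.82, adjusted p = 0.0291) and NDC80 by 0.34 (interval 0.13 to 0.56, adjusted p = 0.0307). For PRC1 the interval was -0.25 to 0.21, and for CDC20 it was -0.24 to 0.17.

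How many genes differ rests on the scaling. With mitochondrial scaling 5 members differed, BUB1 (-0.76, adjusted p = 0.00285) and CCNA2 (-0.66, adjusted p = 0.00788) toward Y79 and CENPE, NDC80 and KIF23 the other way, while the median over all genes shifted to 0.18. Without treated Y79 culture 2 the count was 24 (19 more negative in Y79 and 5 less negative), and its 5 were CENPE (0.63), CENPF (0.50), NDC80, MKI67 (0.41) and ASPM (0.35). The calls for CENPE and NDC80 were lost with library size only (adjusted p = 0.171 for CENPE and 0.208 for NDC80) and without any 1 of 7 or 6 of the 12 cultures (adjusted p = 0.0525 to 0.0817). The call for TTK was lost without any 1 of 11 cultures (adjusted p = 0.0506 to 0.122), that for KIF20A without any 1 of 5 (0.0513 to 0.068) and that for CKAP2 without treated WERI culture 2 (0.0532).

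**Figure D4:**
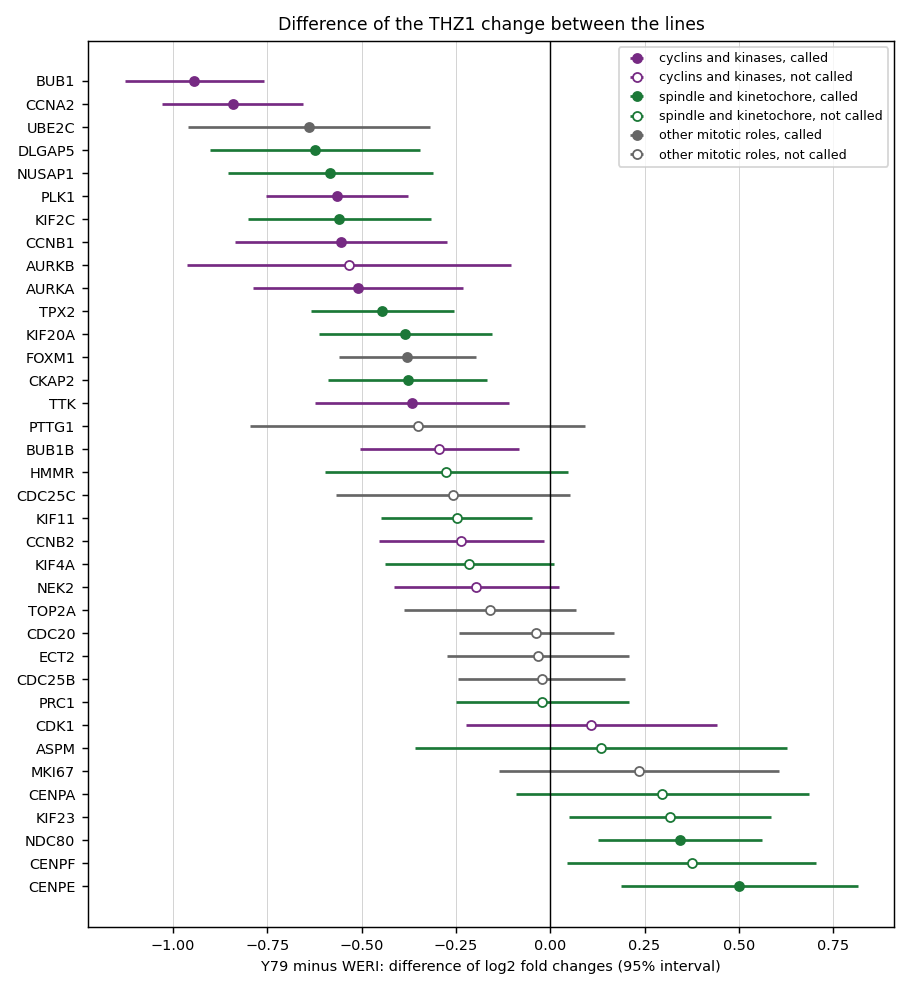
Difference of the THZ1 changes, Y79 minus WERI, in log2 units (x axis) with its 95% interval for each of the 36 genes, coloured by role; filled points passed an adjusted p of 0.05. BUB1 at -0.94 and CCNA2 at -0.84 lie farthest to the left and CENPE at 0.50 farthest to the right under TMM scaling.

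In DMSO alone, the G2/M genes were lower in Y79 than in WERI more often than higher. Of the 36 genes 22 were lower and 4 higher in Y79, against 64.9% of all genes tested called, 32.6% lower and 32.3% higher in Y79, and the median log2 difference was -0.27 for the members and 0.00 for all genes. Among the 8408 genes at member level 69% were called, 28% lower and 41% higher in Y79. KIF4A had the widest gap among the 36, at 17.1 ± 1.22 CPM in Y79 DMSO and 132 ± 5.28 CPM in WERI DMSO cultures, which is 7.72-fold lower in Y79 (-2.95 ± 0.08, adjusted p = 2.25e-12). TOP2A was 3.12-fold lower in Y79 (-1.64 ± 0.08, adjusted p = 4.35e-10), and NEK2 2.09-fold lower (-1.06 ± 0.07, adjusted p = 1.72e-08). The 4 genes higher in Y79 were CCNB2 (2.39-fold, 1.25 ± 0.07), CKAP2 (1.92-fold, 0.94 ± 0.07), CENPF (0.39 ± 0.11) and HMMR (0.32 ± 0.10). The calls for CENPF and HMMR were lost with library size only and with mitochondrial scaling. CCNB1 did not differ detectably between the lines in DMSO, with 125 ± 3.36 CPM in Y79 and 124 ± 4.07 CPM in WERI (interval of the log2 difference -0.18 to 0.20).

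Levels of different genes were compared per kilobase of annotated exon. In Y79 DMSO cultures TOP2A led with 96.5 ± 6.399 CPM per kilobase, followed by TPX2 with 81.1 ± 2.32, CDC20 with 72.7 ± 2.46 and UBE2C with 70.02 ± 2.83, of which CDC20 and UBE2C lay within 1 SD of each other. In WERI DMSO cultures TOP2A led with 301 ± 11.1 CPM per kilobase, more than its next neighbour UBE2C at 97.8 ± 5.64, which TPX2 (83.3 ± 1.91) and CDC20 (80.3 ± 3.71) followed. The lowest in DMSO were KIF4A with 3.77 ± 0.27 CPM per kilobase in Y79 and CDC25C with 7.73 ± 0.32 in WERI. CCNB1 had 7.21 ± 1.20 CPM per kilobase in treated Y79 cultures, below CCNB2 at 29.8 ± 2.87, against 48.9 ± 1.31 for CCNB1 and 45.5 ± 1.18 for CCNB2 in Y79 DMSO cultures.

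Treated Y79 culture 2 differed most from its replicates. It held the highest share of ribosomal protein mRNAs, 14.7% against 10.9% and 10.6% in treated Y79 cultures 1 and 3. Across the 36 genes, its log2 CPM ratio to the mean of the other 2 cultures ran from -0.78 for ASPM to 0.71 for PTTG1, with a Pearson r of -0.75 and a Spearman rho of -0.61 against log10 exon length. These are 36 genes of 1 library, so the relation is a description, and it was not particular to this culture. The same ratio had an r of -0.54 and a rho of -0.60 in WERI DMSO culture 2, 0.56 and 0.51 in WERI DMSO culture 1, and 0.49 and 0.30 in treated WERI culture 2, over narrower ranges of ratios (-0.23 to 0.18, -0.12 to 0.13 and -0.29 to 0.24). In treated Y79 cultures 1 and 3, whose ratios include culture 2, r was 0.61 and 0.69. The part of the ribosomal protein share in it was not tested. The long mRNAs ASPM, MKI67, CENPF and CENPE fell less in Y79 without this culture (-0.64, -0.66, -0.35 and -0.33), and the short mRNAs AURKB and UBE2C fell more (-2.16 and -0.95).

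**Figure D5:**
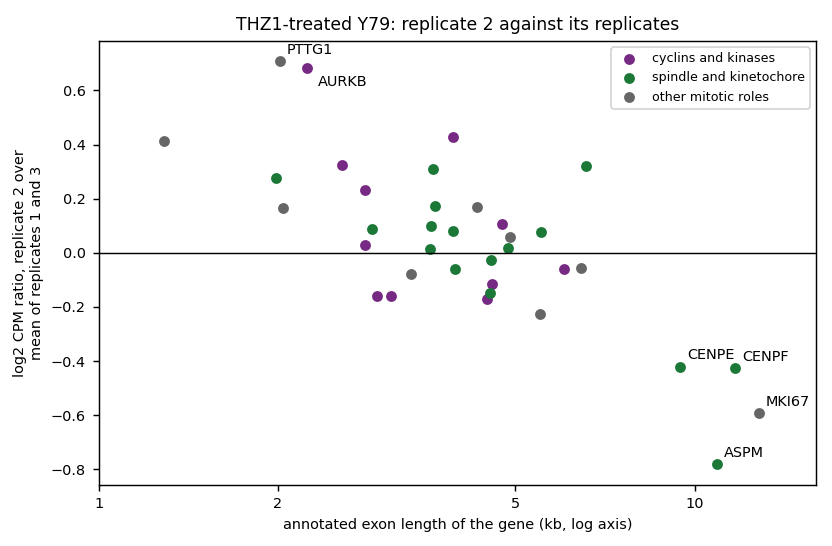
Log2 ratio of treated Y79 culture 2 to the mean of cultures 1 and 3 (y axis) against annotated exon length in kilobases (x axis, log scale) for the 36 genes, coloured by role. PTTG1 is highest at 0.71 and the 4 longest mRNAs lie at the lower right, with ASPM lowest at -0.78.

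Of a wider list of 105 mitosis genes outside the 36, 72 fell in Y79 (68.6%) and 19 rose, with a median log2 fold change of -0.66. In WERI 59 fell (56.2%) and 23 rose, with a median of -0.42. Beside these and the counts below stand the shares over all genes tested, 38.5% lower and 29.9% higher in Y79 and 37.2% lower and 27.7% higher in WERI, and those among genes at member level, 45.1% lower in Y79 and 42.9% in WERI. All genes thus also held more falls than rises, and with mitochondrial scaling the median gene of every list here was negative. Of its 12 genes of the CDK1 switch and mitotic kinases 10 fell in Y79 (median -1.44) and 8 in WERI (median -1.14). Of 28 kinetochore and centromere genes 16 fell in Y79 (median -0.65) and 15 in WERI (median -0.39), and of 17 kinesins and spindle proteins 15 fell in Y79 (median -0.70) and 12 in WERI (median -0.43). Of 17 genes of the anaphase promoting complex and separase 11 fell in Y79 (median -0.69) and 8 in WERI (median -0.20), and of 14 of chromosome structure 9 fell in Y79 (median -0.43) and 7 in WERI (median -0.26). The WERI shares of these last lists, 47.1% and 50%, lay near the 42.9% of genes at member level. Of 12 passenger complex and checkpoint genes 7 fell in Y79 (median -0.43) and 6 in WERI (median -0.48), and of 5 cytokinesis genes 4 fell in Y79 (median -0.73) and 3 in WERI (median -0.28). The WERI share of the passenger and checkpoint list, 50%, also lay near that 42.9%, and the share of the kinetochore and centromere list was 53.6%.

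Among the 105, HJURP, the chaperone that loads CENPA onto centromeres, fell most in Y79 (-2.72) and in WERI (-2.42). KNSTRN (-2.52 in Y79, -1.52 in WERI), a spindle adaptor, ZW10 (-2.38 in Y79, -0.999 in WERI), a kinetochore checkpoint protein, CCNF (-1.91 in Y79, -2.14 in WERI), the F-box cyclin, and BORA (-2.31 in Y79, -2.002 in WERI), the AURKA cofactor that activates PLK1, also fell. WEE1, the kinase that inhibits CDK1, fell by 1.75 in Y79 and 1.79 in WERI. Among genes that rose were STMN1 (1.499 in Y79, 1.66 in WERI), a tubulin-binding protein, CENPH (1.35 in Y79, 1.16 in WERI), a constitutive centromere protein, SMC1A (1.06 in Y79, 1.21 in WERI), a cohesin subunit, and NCAPH2 (1.22 in Y79, 0.65 in WERI), a condensin subunit, all 4 of which were negative with mitochondrial scaling.

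Transcription factors and regulators of the cell cycle were a list of 26, of which 16 fell and 5 rose in Y79 (61.5% lower, median -0.54) and 18 fell and 2 rose in WERI (69.2% lower, median -0.65), beside 38.5% of all genes lower in Y79 and 37.2% in WERI. MYBL2, which binds MuvB at CHR promoters, was at 216, 283 and 221 CPM in treated Y79 and 189, 181 and 183 CPM in Y79 DMSO cultures. It rose by 0.38 ± 0.10 in Y79 (adjusted p = 0.00293; -0.19 with library size only and -1.33 with mitochondrial scaling) and was not called in WERI (0.15 ± 0.10, adjusted p = 0.18). E2F5 (-1.87 in Y79, -1.80 in WERI), E2F8 (-1.80 in Y79, -1.59 in WERI) and E2F1 (-1.59 in Y79, -1.59 in WERI), members of the E2F family, fell. CDKN1A, an inhibitor of cyclin-dependent kinases, fell by 0.75 in Y79 and 1.19 in WERI. TFDP1 (0.58 in Y79, 0.79 in WERI), the E2F partner, and RBBP4 (0.46 in Y79, 0.60 in WERI), a MuvB subunit, rose, but were negative with mitochondrial scaling, as was RBBP4 in Y79 with library size only.

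The pocket proteins, which restrain E2F and MuvB targets, differed between the lines. RB1, the gene lost in retinoblastoma, had 0 to 5 counts in every WERI library, while Y79 had 113, 86.5 and 106 CPM with THZ1 and 49.7, 50.8 and 48.7 CPM with DMSO. In Y79 RB1 rose by 1.03 ± 0.17 (adjusted p = 0.000123), with -0.68 under mitochondrial scaling. These are mRNA counts, which do not show whether Y79 makes a working RB1 protein. RBL2, which forms the repressive DREAM complex with MuvB, rose by 0.66 in Y79 (adjusted p = 4.02e-05; -1.06 with mitochondrial scaling) and was not called in WERI (0.16, adjusted p = 0.171).

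Of 46 S phase and replication genes, 31 fell in each line (67.4%, beside 38.5% of all genes in Y79 and 37.2% in WERI). Rises numbered 12 in Y79 and 14 in WERI, near the shares of all genes called higher (29.9% in Y79 and 27.7% in WERI), with medians of -0.82 in Y79 and -0.70 in WERI. Falls were found for GMNN (-2.79 in Y79, -1.64 in WERI), GINS3 (-2.66 in Y79, -1.43 in WERI), CDC6 (-2.31 in Y79, -1.69 in WERI), POLD3 (-2.22 in Y79, -2.51 in WERI), CCNE1 (-2.09 in Y79, -2.38 in WERI) and UHRF1 (-2.07 in Y79, -1.99 in WERI), which act in origin licensing, DNA synthesis, S phase entry and maintenance methylation. Rises were found for TYMS (1.11 in Y79, 1.35 in WERI), LIG1 (1.18 in Y79, 1.01 in WERI) and POLD1 (1.18 in Y79, 0.78 in WERI), enzymes of nucleotide and DNA synthesis, all negative with mitochondrial scaling. In DMSO 36 of the 46 were higher and 3 lower in Y79 than in WERI (median 0.40), beside 32.3% of all genes higher and 41% at member level; with mitochondrial scaling 14 were higher and 5 lower (median 0.13), and the median of the 36 mitosis genes was -0.55.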

How the data were processed

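Total RNA of 12 cultures was sequenced from NEBNext Ultra libraries, which do not keep strand, per the labels' protocols. The deposited table holds raw counts per feature made by the authors. Cufflinks and GRCh38 are named in the submitters' processing notes, with aligner and read counter not given in the sources used here. Totals were 29677575 to 37433574 counts per library.

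Features passing filterByExpr in edgeR 4.0.16 (R 4.3.3) were scaled with TMM factors and fitted as 4 group means over all 12 libraries (glmQLFit, robust, 8 residual degrees of freedom). Contrasts were tested two-sided with glmQLFTest and Benjamini-Hochberg adjustment over all tested features, with a threshold of 0.05 on the adjusted p for a call. The SE was derived from each F statistic as |log2 fold change| / sqrt(F). The procedure was tested on simulated data with 200 genes changed in both lines and another 200 in Y79 only. Simulated rises and falls were balanced and all other genes were unchanged, so the simulation could not test the scaling. Each of 237 list symbols (the 36 genes, other mitosis genes, cell cycle transcription factors, S phase genes, photoreceptor and other cell type markers) matched 1 row. The genes and lists were chosen with earlier results of these data known. From each other list, the 3 called genes with the lowest and the 3 with the highest change per line were named, at an average log2 CPM of at least 2, together with CDK7, MYBL2, WEE1, CDKN1A and RB1; some genes that this rule names are not reported here. Coordinates and exon lengths come from GENCODE v29, and promoter sequences from RefSeq (GRCh38.p14).

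Alternatives were RLE factors, library size only, scaling to 13 mitochondrially encoded mRNAs, DESeq2 1.42.0, no filter, Ensembl genes only, only the groups compared, a replicate block, each library left out, and BUB1, BUB1B and TTK moved to the spindle genes. Sums of overlapping gene models were added after seeing the data, as was naming the fit without treated Y79 culture 2. Tables and figures were made with Python 3.11.15, pandas 2.3.3, scipy 1.17.1 and matplotlib 3.10.9.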

Additional observations from a re-analysis of the deposited data

Results flagged for a closer look

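The change after THZ1 differed between the lines for 16 of the 36 genes and 11 of 36 other named genes. This is by the test of the difference itself (Y79 minus WERI, log2 units, adjusted p under 0.05 over all features). Over all genes tested 22% differed, and among genes at member level 30.2% did. Most of the other genes were named for the lowest or highest change in a line, so their count is no result about them. Among cyclins and kinases it was more negative in Y79 for BUB1 (-0.943), CCNA2 (-0.842), PLK1 (-0.566), CCNB1 (-0.555), AURKA (-0.509) and TTK (-0.366). Among spindle genes it was more negative in Y79 for DLGAP5 (-0.623), NUSAP1 (-0.583), KIF2C (-0.559), TPX2 (-0.445), KIF20A (-0.384) and CKAP2 (-0.378), and less negative for CENPE (0.501) and NDC80 (0.344). The remaining members were UBE2C (-0.639) and FOXM1 (-0.379).

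Outside the 36, the mitosis genes ZW10 (-1.376), KNSTRN (-0.998) and NCAPH2 (0.57), the S phase genes GINS3 (-1.226), GMNN (-1.147) and CDC6 (-0.625), the regulators RBL2 (0.501) and CDKN1A (0.435), and the photoreceptor lineage genes NEUROD1 (-0.875), PRDM1 (-0.461) and OTX2 (-0.409) also differed.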

How the results depend on the processing

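Of 2988 values of members under alternatives, 2800 kept their side of the threshold with no called value reversed, 114 lost a call, 63 gained one and 11 reversed. Of the 2800, 83 were called on neither side and differed in sign. Scaling mattered most, and the cause was not tested. The count of members higher was 2 in WERI with library size only and 0 in both lines with mitochondrial scaling. Differences between lines numbered 5 with mitochondrial scaling, 2 of them lower, and those higher in Y79 numbered 0 with library size only, 1 without a filter and 0 with the replicate block. Members higher in Y79 than in WERI in DMSO numbered 2 with library size only and 2 with mitochondrial scaling. With DESeq2, 28 members fell and 2 rose in Y79, and 26 fell and 6 rose in WERI.

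With library size only, the role medians in Y79 were -2.316 for cyclins and kinases, -1.378 for spindle genes and -1.025 for the others, and in WERI -1.357, -1.391 and -0.608. With mitochondrial scaling they were -3.465, -2.533 and -2.167 in Y79 and -2.801, -2.834 and -2.055 in WERI. With RLE factors they were -1.648, -0.717 and -0.352 in Y79, and -0.076 for the others in WERI. With BUB1, BUB1B and TTK among the spindle genes, cyclins and kinases had medians of -1.811 in Y79 and -1.123 in WERI. The median of all genes was -0.651 in Y79 and -0.562 in WERI with library size only, and the members' median minus that of all genes lay between -0.703 and -0.722 under all 4 scalings. A change of scaling shifts all genes of a comparison nearly alike, so this closeness was fixed in advance and tests nothing.

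With library size only, values reversed in WERI for NUSAP1 (-0.162), FOXM1 (-0.174), TOP2A (-0.322), RBL2 (-0.287) and MYBL2 (-0.295), and in Y79 for RBBP4 (-0.103) and MYBL2 (-0.194). With mitochondrial scaling they reversed in WERI for KIF4A (-0.888), NUSAP1 (-1.606), PRC1 (-0.885), PTTG1 (-1.622), FOXM1 (-1.623), TOP2A (-1.768), CENPH (-0.737), SMC1A (-0.686), STMN1 (-0.241), NCAPH2 (-1.251), RBBP4 (-1.294), TFDP1 (-1.111), RBL2 (-1.742), MYBL2 (-1.748), LIG1 (-0.889), TYMS (-0.552), POLD1 (-1.124), NEUROD1 (-1.351), RCVRN (-0.861), PDE6H (-0.757) and COL1A1 (-0.82). In Y79 they reversed for KIF4A (-0.914), PRC1 (-0.719), CENPH (-0.372), SMC1A (-0.653), STMN1 (-0.215), NCAPH2 (-0.493), RBBP4 (-1.252), TFDP1 (-1.128), RBL2 (-1.055), RB1 (-0.681), MYBL2 (-1.33), LIG1 (-0.535), TYMS (-0.603), POLD1 (-0.529), RCVRN (-0.466), PDE6H (-0.356) and COL1A1 (-0.6), and between the lines in DMSO for CCNF (-0.083).

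Leaving out 1 library at a time gave 30 to 35 called members in Y79 (28 to 33 lower and 2 higher), 30 to 35 in WERI (27 to 30 lower and 3 to 5 higher), 12 to 24 for the difference (12 to 19 lower and 0 to 5 higher) and 22 to 29 between the lines in DMSO (18 to 24 lower and 3 to 5 higher). Replicate numbers did not appear to pair the libraries. Deviations of same-numbered libraries correlated at -0.044 to 0.005, and those of differently numbered libraries at -0.058 to 0.078. These values cannot show whether same-numbered cultures were handled together. With the replicate block 32 members were called in Y79, 32 in WERI, 13 for the difference and 26 between the lines in DMSO. The lowest count of a member in any library was 141, for CENPA.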
